A study of Homo sapiens with 12 samples.

Results

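The genes described here are 33 genes of cholesterol and fatty acid synthesis in DU145 cells, an established human prostate cancer line. They were taken by symbol from the 28747 gene identifiers of the count table, and all 33 were found. They comprise 7 genes of the mevalonate arm, 3 of the squalene and lanosterol steps, 8 of the steps from lanosterol to cholesterol, 5 regulators, 3 genes of sterol handling and 7 of fatty acid synthesis and desaturation. They are not the whole pathway. The 12 RNA-seq libraries fell into 4 groups of 3, namely cells with a control hairpin (shCtrl) or the knockdown hairpin that the labels call shSigma, each grown as adherent cultures or as tumor spheres. Per the study's methods the lines carried stably expressed lentiviral hairpins. All shSigma libraries carry the same hairpin label. Off-target effects of a hairpin and other differences between the lines therefore cannot be told apart from the knockdown. Adherent cells grew in medium with serum. Per the study's methods spheres grew without attachment and at low density, in another base medium without serum that held added insulin and growth factors. These conditions cannot be told apart in a comparison of the cultures. The labels call the replicates independent but do not name separate transductions, and p-values then measure only the spread between these libraries. The comparisons ask whether the knockdown changed these genes in bulk cells and in stem-like sphere cells, and whether the cultures differed.

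Cells make cholesterol from acetyl-CoA through mevalonate, farnesyl diphosphate, squalene and lanosterol. The transcription factors SREBP-1 and SREBP-2, encoded by SREBF1 and SREBF2, switch these enzymes on when sterols in the endoplasmic reticulum run low. SCAP then escorts SREBP to the Golgi apparatus, and the INSIG proteins hold SCAP back when sterols are plentiful. SREBP-1 acts more on fatty acid enzymes, and SREBP-2 more on sterol enzymes.

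Libraries held 16472722 to 26957777 counts, with the highest totals in adherent shCtrl. The keratins KRT8 and KRT18 were expressed in every group (group means of 234 or more normalised read counts, CPM, relative to the effective library size), whereas KLK3 had group means of at most 0.0322 CPM. Of the 5 epithelial markers 3 were higher and 2 lower after knockdown in adherent cells, and 4 were lower in spheres, where CDH1 went from a mean of 727 to 27.8 CPM. EPCAM went from 235 to 30.9 CPM in adherent cells and from 613 to 61.9 CPM in spheres. Of the 7 markers of immune, stromal and endothelial cells, 5 were too low to test for the knockdown, and 1 was lower in adherent cells and 2 in spheres. The part of these markers in the results on the lipid genes was not tested.

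Promoter stretches are shown for members that moved in different ways, because SREBP usually binds a sterol regulatory element next to a CCAAT box, the site of NF-Y. RefSeq (GRCh38.p14) gave a start site for 29 of the 33 members, all but ACAT2, FDFT1, SQLE and FASN. The window of 250 bases before to 50 after the start was searched on both strands for TCACNCCAC (a core of the sterol regulatory element), CCAAT and GGGCGG (Sp1). A match was counted for each motif even where motifs overlapped. TCACNCCAC was found in 1 of 29 members, SREBF2, and in 1.15% of 27305 promoters of all genes. CCAAT was found in 18 of 29 and in 35.7% of all, and GGGCGG in 26 of 29 and in 44.6% of all. A match describes the letters and is not a site. Other forms of the element and bases outside the window were not searched. A promoter without a match may thus still hold one. Capitals below mark TCACNCCAC and CCAAT (or ATTGG, its reverse complement), and each 70-base stretch reads 5′ to 3′ on the strand of its gene. The SREBF2 stretch lies at chr22:41832942-41833011 (plus strand) within an exon of the antisense gene SREBF2-AS1. The INSIG1, SCD and MYLIP stretches lie at chr7:155297678-155297747, chr10:100347017-100347086 and chr6:16128988-16129057 (all plus strand), outside annotated exons.
SREBF2: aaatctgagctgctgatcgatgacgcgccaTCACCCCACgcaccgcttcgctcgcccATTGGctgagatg
INSIG1: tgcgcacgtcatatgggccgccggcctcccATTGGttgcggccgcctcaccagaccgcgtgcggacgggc
SCD: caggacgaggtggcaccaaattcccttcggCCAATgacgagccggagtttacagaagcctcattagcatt
MYLIP: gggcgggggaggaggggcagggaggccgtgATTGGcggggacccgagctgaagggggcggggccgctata

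Levels differed widely between members. Per kilobase of exon, SCD, the Δ9 desaturase that makes oleic acid, was the highest in adherent shCtrl cells at 322 CPM per kb. FDPS and ACLY followed at 121 and 117 CPM per kb, and the others lay between 2.42 (MVK) and 63.8 (ACAT2) CPM per kb. LSS and CYP51A1 lay at 0.874 and 0.601 CPM per kb. FDFT1 and ACACA, which encode squalene synthase and acetyl-CoA carboxylase 1, had only 2 to 21 and 2 to 19 counts per library over all 12 libraries. ACACA could be tested in none of the comparisons and FDFT1 not in tumor spheres, so no statement on either is made. These counts are low for enzymes of growing cells, and whether the counting left out reads of these genes is not given in the sources used here. CYP51A1 shares 68.2% of its exon bases with gene models on its own strand, so its counts are uncertain. ACAT2 and HMGCS1 share 22.2% and 37.7% with genes on the opposite strand, and whether strand was used in counting is not given in the sources used here. The levels of 31 members are shown in the heat map by library.

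**Figure D1:**
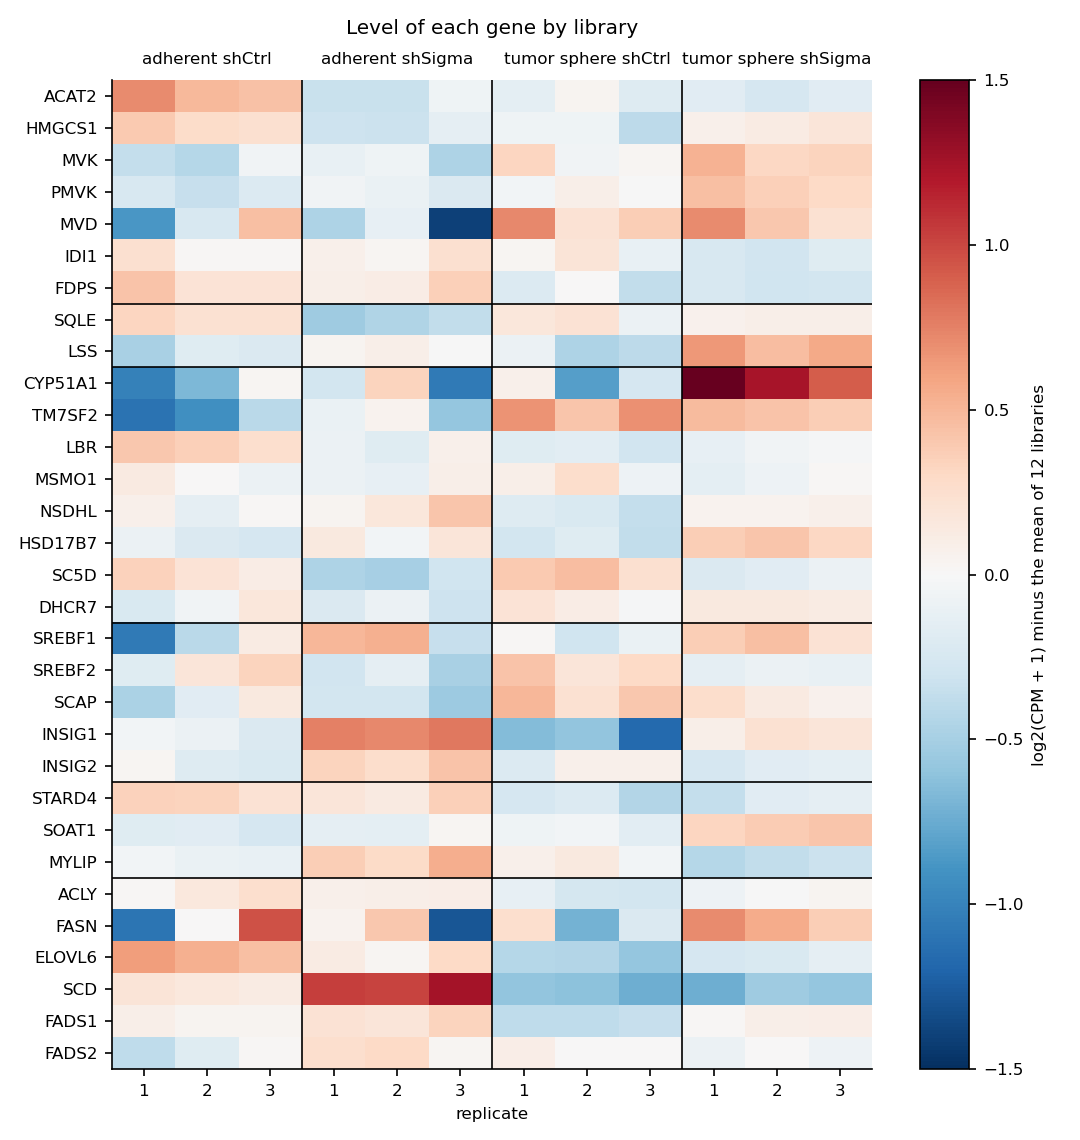
Colour gives each library's log2(CPM + 1) minus the mean of the 12 libraries, for 31 members (rows, in order of role, with lines between roles) and 12 libraries (columns, grouped by condition). Red is higher and blue lower. SCD was highest in adherent shSigma and lowest in tumor spheres, and FASN and MVD differed strongly between adherent replicates.

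In adherent cells, ACAT2, HMGCS1, SQLE, SC5D and LBR of the sterol pathway fell with the knockdown, and SCD and INSIG1 rose. In such bulk samples, fewer cells that express a gene and less RNA per cell cannot be told apart. Of 32 members tested, 7 were lower (21.9%, against 27.7% of all genes tested) and 4 were higher (12.5%, against 22.3% of all genes) at an adjusted p under 0.05. The other 21 were not called. The median log2 fold change was -0.018 for the members and -0.014 for all genes, and the members ran from -0.86 to 0.88, so none passed a log2 fold change of 1, as 13.7% of all genes did. Of the 3 squalene and lanosterol genes SQLE was lower, and of the 7 mevalonate genes ACAT2 and HMGCS1 were lower.

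ACAT2, which makes acetoacetyl-CoA, had 188, 161 and 156 CPM in shCtrl and 90.8, 90.6 and 109.9 CPM in shSigma libraries. HMGCS1, the HMG-CoA synthase, had 381, 351 and 342 CPM in shCtrl and 233, 231 and 265 CPM in shSigma libraries. SQLE, the squalene epoxidase, had 164, 153 and 154 CPM in shCtrl and 90.1, 95.4 and 101 CPM in shSigma libraries. In all 3 genes every shSigma library lay below every shCtrl library. The share of all genes whose groups do not overlap is not given, so here and below this only describes the genes named. The log2 fold changes were -0.86 ± 0.103 (SE, adjusted p = 0.000385) for ACAT2, -0.63 ± 0.0751 (adjusted p = 0.000397) for HMGCS1 and -0.78 ± 0.0661 (adjusted p = 8.59e-05) for SQLE. SC5D, a late desaturase of the sterol ring, had 109, 98.1 and 92.3 CPM in shCtrl and 61.7, 59.97 and 69.1 CPM in shSigma libraries, again without overlap (-0.72 ± 0.0888, adjusted p = 0.000466). LBR, a sterol reductase of the inner nuclear membrane, fell by 0.47 on the log2 scale and ELOVL6, a fatty acid elongase, fell by 0.46. SREBF2 also had a negative value (-0.48, adjusted p = 0.0386). SREBF2 libraries overlapped (194, 249 and 277 CPM in shCtrl against 179.6, 201 and 157 CPM in shSigma). The call was lost when adherent shCtrl replicate 2 or 3 or adherent shSigma replicate 1 or 3 was left out (values from -0.37 to -0.42, adjusted p up to 0.134).

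SCD and INSIG1 moved the other way. SCD had 1725, 1691 and 1654 CPM in shCtrl and 3096, 3065 and 3607 CPM in shSigma libraries (log2 fold change 0.88 ± 0.0804, adjusted p = 0.000118). INSIG1 had 72.0, 69.7 and 63.6 CPM in shCtrl and 126, 123 and 129 CPM in shSigma libraries (0.82 ± 0.0761, adjusted p = 0.000129). In both genes the shSigma libraries lay above all shCtrl libraries. INSIG2, the paralog of INSIG1, rose by 0.41 and MYLIP, a ubiquitin ligase that limits uptake of lipoprotein, rose by 0.44. The remaining regulators, SREBF1 and SCAP, were not called, with log2 values of 0.63 ± 0.379 and -0.27 ± 0.168. The number of members called higher was 7 with upper-quartile scaling and 9 when all 12 libraries were fitted together. With GC offsets, which correct for the base composition of the transcripts, 9 were called higher and 12 lower. The shares of all genes called under these other settings are not given here.

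**Figure D2:**
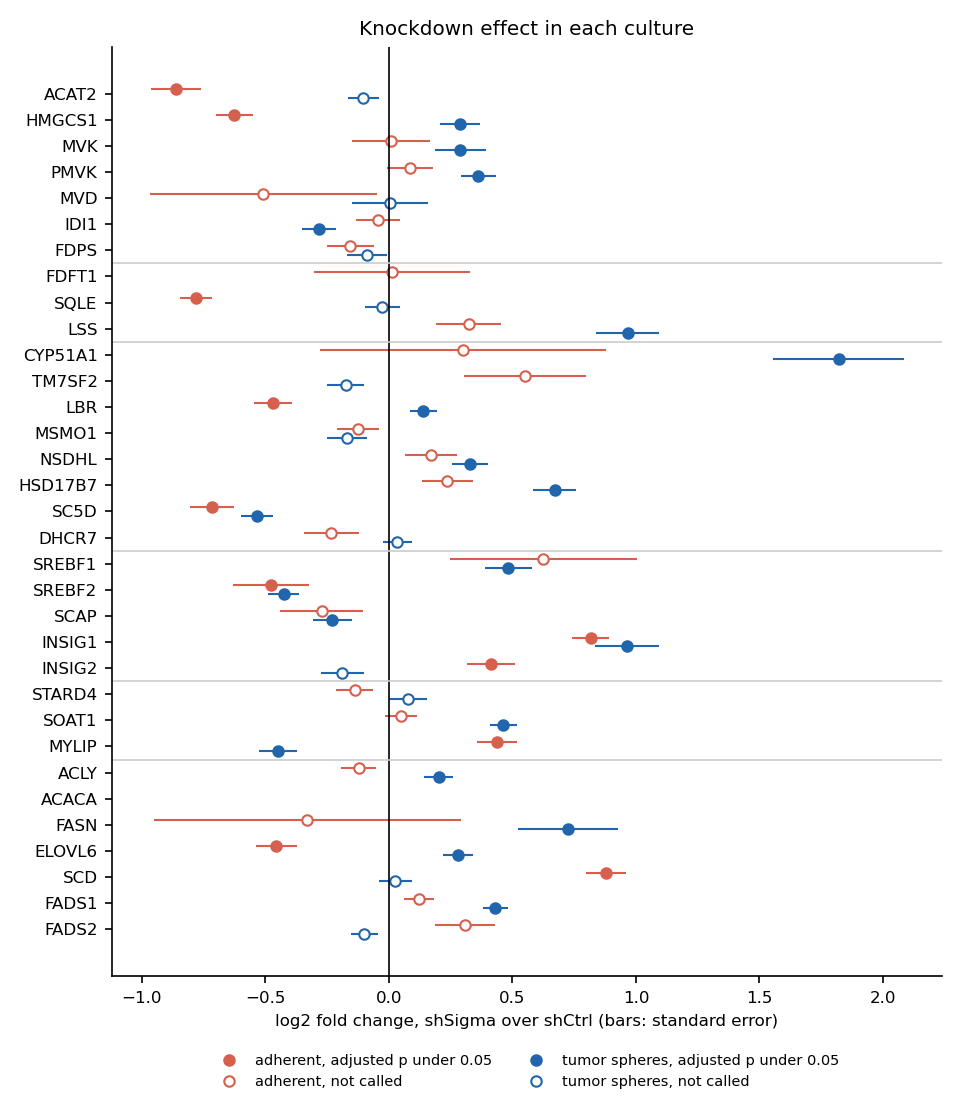
Points are the log2 fold change of shSigma over shCtrl (x axis) for each member (y axis, in order of role, grey lines between roles), with bars of 1 standard error, in red for adherent cells and blue for tumor spheres. Filled points have an adjusted p under 0.05. HMGCS1, LBR, ELOVL6 and MYLIP lay on opposite sides of 0 in the cultures and were called in both.

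In tumor spheres more members were called higher than lower after knockdown. Of 31 members tested, 15 were higher (48.4%, against 30.2% of all genes) and 5 were lower (16.1%, against 30.9% of all genes), and 11 were not called. The median log2 fold change was 0.077 for the members and 0.002 for all genes. CYP51A1 was the only member past a log2 fold change of 1, where 13.1% of all genes lay. The members called higher comprised 3 of the mevalonate arm, 1 of the squalene and lanosterol steps, 4 of the steps from lanosterol, 2 regulators, 1 of sterol handling and 4 of fatty acid synthesis.

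INSIG1 had 47.0, 48.8 and 32.6 CPM in shCtrl and 78.8, 86.9 and 84.3 CPM in shSigma spheres. LSS, the lanosterol synthase, had 7.44, 5.52 and 5.85 CPM in shCtrl and 13.1, 11.4 and 12.3 CPM in shSigma spheres. HSD17B7, a ketoreductase of the sterol ring that has an annotated pseudogene copy, had 14.1, 15.1 and 13.1 CPM in shCtrl and 22.5, 23.2 and 21.6 CPM in shSigma spheres. In these 3 genes the groups did not overlap and shSigma was higher. The log2 fold changes were 0.96 ± 0.129 (SE, adjusted p = 0.000158) for INSIG1, 0.97 ± 0.128 (adjusted p = 4.55e-05) for LSS and 0.67 ± 0.0869 (adjusted p = 3.81e-05) for HSD17B7. CYP51A1, the lanosterol demethylase, had 4.16, 1.77 and 3.12 CPM in shCtrl and 13.1, 10.6 and 8.21 CPM in shSigma spheres, without overlap (1.82 ± 0.266, adjusted p = 0.00027). Its level was low and its exons are shared as described above. LSS was low too, with 100 to 127 counts per shCtrl and 215 to 259 counts per shSigma sphere library.

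FASN, the fatty acid synthase, had 277, 141 and 198 CPM in shCtrl and 379, 342 and 300 CPM in shSigma spheres (0.73 ± 0.202, adjusted p = 0.0116). The groups did not overlap, but the call was lost without tumor sphere shCtrl replicate 2 or 3 or shSigma replicate 1 (log2 values 0.51, 0.71 and 0.65). The other called increases were SREBF1 (0.48), SOAT1, which esterifies cholesterol (0.46), the desaturase FADS1 (0.43), PMVK (0.36), NSDHL (0.33), HMGCS1 (0.29), MVK (0.29), ELOVL6 (0.28), ACLY, which supplies cytosolic acetyl-CoA (0.20), and LBR (0.14).

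SC5D again fell, with 112, 118 and 101 CPM in shCtrl and 73.3, 75.5 and 80.2 CPM in shSigma spheres (-0.53 ± 0.0656, adjusted p = 2.55e-05). Its groups did not overlap in either culture. SREBF2 was lower in spheres without overlap (297, 250 and 271 CPM against 201, 206 and 204 CPM, log2 fold change -0.43, adjusted p = 0.000129). MYLIP, which rose in adherent cells, fell in spheres, from 35.1, 37.0 and 32.4 CPM to 24.6, 25.6 and 26.5 CPM (-0.45, adjusted p = 0.000309). IDI1, the isopentenyl diphosphate isomerase, was lower (-0.28), as was SCAP (-0.23, with overlapping libraries). SCD, which rose in adherent cells, had 1008, 990.3 and 912 CPM in shCtrl and 912, 1042 and 1016 CPM in shSigma spheres (0.026 ± 0.0667, adjusted p = 0.752). SQLE showed values of -0.026 ± 0.071 (adjusted p = 0.763) in spheres. ACAT2 had -0.10 ± 0.0639 (adjusted p = 0.18), and all 3 had overlapping groups there. The MVK call was lost without shCtrl replicate 2 or 3 or shSigma replicate 1 (0.21 to 0.26) and with GC offsets (0.19, adjusted p = 0.0531), and that of ACLY without shSigma replicate 3 (0.18). Those of LBR (0.11 to 0.16) and SCAP (-0.22 to -0.16) were lost without shCtrl replicate 1 or 3 or shSigma replicate 2 or 3. With all 12 libraries fitted together, the calls of MVK, LBR, SREBF1, SCAP and FASN in spheres were lost. With GC offsets 8 members were called lower in spheres instead of 5, and the share of all genes with these offsets is not given here.

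**Figure D3:**
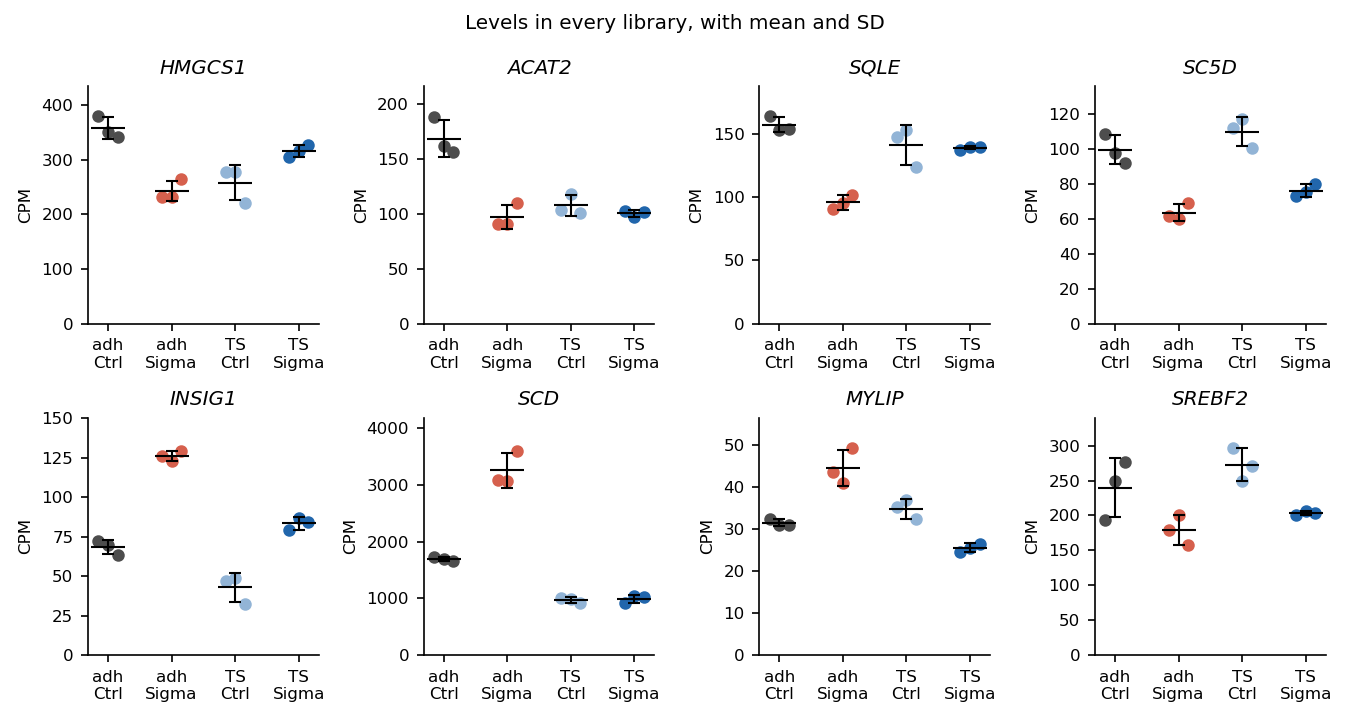
CPM in every library (points) with mean and SD of 3 libraries (black), for 8 members in adherent (adh) and tumor sphere (TS) cells with shCtrl (Ctrl) or shSigma (Sigma). Each panel has its own axis from 0. INSIG1 was higher and SC5D lower with shSigma in both cultures, and SCD was higher with shSigma in adherent cells, whereas its sphere groups overlapped.

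The difference of the knockdown effect between the cultures, as tumor spheres minus adherent cells, was tested on all 12 libraries. Of 32 members, 9 differed upward (28.1%, against 12.7% of all genes) and 4 downward (12.5%, against 15.6% of all genes), and 19 were not called. The median difference was 0.18 on the log2 scale for the members and -0.034 for all genes. Among called members the values ran from -0.95 to 0.85, while 8.54% of all genes were called past a difference of 1. With GC offsets 14 members were called upward. The 12.7% of all genes is from the fit without these offsets, and their own share is not given here.

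The largest called upward differences were HMGCS1 (0.85 ± 0.126, SE, adjusted p = 0.000198), ACAT2 (0.69 ± 0.132, adjusted p = 0.00145), SQLE (0.69 ± 0.109, adjusted p = 0.000337) and ELOVL6 (0.67 ± 0.112, adjusted p = 0.000551). HMGCS1 was lower with shSigma in adherent cells and higher in spheres, where it had 278, 277 and 221 CPM in shCtrl and 304, 317 and 328 CPM in shSigma libraries, without overlap. ELOVL6 had 195, 183 and 172 CPM in adherent shCtrl and 136, 128 and 155 CPM in adherent shSigma libraries, against 93.2, 92.1 and 83.5 CPM and 106, 107 and 114 CPM in spheres. LBR (0.55 ± 0.102, adjusted p = 0.00128) turned in the same way. It had 228, 219 and 205 CPM in adherent shCtrl, 161, 152 and 180.4 CPM in adherent shSigma, 151, 154 and 140.5 CPM in sphere shCtrl and 157, 165 and 169.5 CPM in sphere shSigma libraries. LSS (0.58 ± 0.189, adjusted p = 0.0327), HSD17B7 (0.37), SOAT1 (0.35) and FADS1 (0.25) also differed upward. The LSS call was lost without adherent shCtrl replicate 2, adherent shSigma replicate 1, tumor sphere shCtrl replicate 2 or 3 or tumor sphere shSigma replicate 1 or 3 (0.54 to 0.61). Among these fits the HSD17B7 call held without adherent shCtrl replicate 1 or 3, adherent shSigma replicate 3 or tumor sphere shCtrl replicate 2, and otherwise gave 0.33 to 0.43. The FADS1 call held without these 4 and without tumor sphere shSigma replicate 1, and otherwise gave 0.24 to 0.29.

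MYLIP (-0.95 ± 0.117, adjusted p = 4.73e-05), SCD (-0.92 ± 0.116, adjusted p = 5.64e-05) and INSIG2 (-0.66 ± 0.133, adjusted p = 0.00206) differed downward, as did FADS2 (-0.46, adjusted p = 0.0187). INSIG2 had 41.6, 35.7 and 34.8 CPM in adherent shCtrl and 51.7, 49.4 and 55.2 CPM in adherent shSigma libraries. In spheres it had 35.3, 43.1 and 43.2 CPM in shCtrl and 34.1, 36.2 and 36.8 CPM in shSigma libraries, which overlapped. The FADS2 call was lost without adherent shCtrl replicate 1 (-0.32, adjusted p = 0.0882). INSIG1, SC5D and SREBF2, whose fold changes had the same sign in both cultures, showed differences of 0.083 ± 0.166, 0.12 ± 0.117 and 0.00 ± 0.171, and the test did not detect one. CYP51A1 had the highest value, 1.48, with an SE of 0.716 (adjusted p = 0.16).

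Tumor spheres and adherent cells were also compared within each line. These comparisons use the same libraries as those above and are not independent of them. In shCtrl cells, 4 of the 6 fatty acid genes tested were lower in spheres. Of 32 members, 11 were lower (34.4%, against 26.3% of all genes) and 4 were higher (12.5%, against 27.4% of all genes). The median log2 fold change was -0.036 for the members and 0.037 for all genes, and 2 members passed a log2 fold change of 1, where 15.8% of all genes lay.

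These 4 genes were ELOVL6, SCD, FADS1 and ACLY. ELOVL6 fell by 1.03 ± 0.0727 on the log2 scale (adjusted p = 1.71e-05) and SCD by 0.80 ± 0.0704 (adjusted p = 5.43e-05), each without overlap of the libraries given above. INSIG1 (-0.68 ± 0.151, adjusted p = 0.00724), ACAT2 (-0.65 ± 0.0928, adjusted p = 0.000695) and LBR (-0.55 ± 0.0653, adjusted p = 0.000265) were lower as well. STARD4, a carrier of cholesterol between membranes, had 132, 129.9 and 120.1 CPM in adherent and 86.1, 89.1 and 75.6 CPM in sphere libraries (-0.61 ± 0.0781, adjusted p = 0.000402). TM7SF2, which shares the sterol C14 reductase step with LBR, went the other way. It had 34.3, 39.3 and 56.6 CPM in adherent and 120.3, 100.4 and 121 CPM in sphere libraries, without overlap (1.39 ± 0.191, adjusted p = 0.00102). The value was 0.63 (adjusted p = 3.52e-05) after a correction for GC content. SCAP was higher by 0.53 ± 0.16 (adjusted p = 0.0267), MVK by 0.39 and PMVK by 0.29. Under the GC correction SCAP and PMVK changed sign (-0.053 and -0.14, not called), MVK was at 0.018 (adjusted p = 0.892) with its call lost, and HMGCS1 was at -0.30 and FDPS at -0.72, both called. The MVK call was lost without adherent replicate 1 or 2 or sphere replicate 1 or 3 (0.24 to 0.40), and the SCAP call without adherent replicate 2 or sphere replicate 1 or 3 (0.44 to 0.52). The PMVK call was lost without adherent replicate 2 or any sphere library (0.24 to 0.28), and the NSDHL call (-0.26) without adherent replicate 1 or any sphere library (-0.33 to -0.25). The 4 calls of higher members ranged between 1 and 7 when a library was left out, with 1 without adherent shCtrl replicate 2 or tumor sphere shCtrl replicate 1 or 3 and 7 without adherent shCtrl replicate 3.

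In shSigma cells, 12 of 32 members were higher in spheres (37.5%, against 21.9% of all genes) and 9 were lower (28.1%, against 25.2% of all genes). The median was 0.077 for the members and 0.003 for all genes, and 2 members passed a log2 fold change of 1, where 9.32% of all genes lay. Of the 8 genes from lanosterol to cholesterol, 5 were higher and the other 3, LBR (0.021), MSMO1 (-0.007) and NSDHL (-0.14), were not called.

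SQLE rose from 90.1, 95.4 and 101 CPM to 137, 139.5 and 139.6 CPM (0.56 ± 0.0496, adjusted p = 9.91e-05), LSS from 8.24, 8.55 and 7.96 CPM to the sphere values given above (0.59 ± 0.101, adjusted p = 0.00234). MVK, the mevalonate kinase, rose from 24.3, 25.3 and 18.9 CPM to 38.3, 33.1 and 33.7 CPM (0.64 ± 0.134, adjusted p = 0.00669). PMVK, the next kinase of the arm, rose from 32.7, 31.8 and 29.2 CPM to 46.9, 44.03 and 42.1 CPM (0.53 ± 0.0817, adjusted p = 0.00149). None of these 4 genes had overlapping groups. SCAP (0.55 ± 0.105, adjusted p = 0.00451) and TM7SF2 (0.64 ± 0.181, adjusted p = 0.0325) were higher, at 0.058 and -0.023, neither called, after the GC correction. Under it PMVK was at 0.23, MVK at 0.40, LSS at 0.35 and DHCR7 at 0.12, all still called. CYP51A1 was higher by 1.76 ± 0.46 (adjusted p = 0.0255), and the call was lost without adherent shSigma replicate 1 or tumor sphere shSigma replicate 1 or 2 (1.58 to 1.77). The TM7SF2 call was lost without adherent shSigma replicate 1 or any sphere library (0.62 to 0.69). SOAT1, HMGCS1, DHCR7, HSD17B7 and SC5D rose by 0.29 to 0.49, and the HSD17B7 call was lost without adherent shSigma replicate 2 or tumor sphere shSigma replicate 1 or 2 (0.24 to 0.30).

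SCD was the member with the largest fall in shSigma cells, from 3096, 3065 and 3607 CPM in adherent to 912, 1042 and 1016 CPM in sphere libraries (-1.69 ± 0.0772, adjusted p = 3.94e-06). MYLIP fell from 43.6, 40.9 and 49.2 CPM to 24.6, 25.6 and 26.5 CPM (-0.78 ± 0.0746, adjusted p = 0.000147). INSIG1 fell from 126, 123 and 129 CPM to 78.8, 86.9 and 84.3 CPM (-0.57 ± 0.0552, adjusted p = 0.000149). These groups did not overlap. INSIG2, FDPS, STARD4, ELOVL6, IDI1 and FADS1 were lower, with values from -0.52 to -0.15, and the FADS1 call was lost without adherent shSigma replicate 1 or any sphere library (-0.17 to -0.12). FDPS, the farnesyl diphosphate synthase, was lower in spheres of both lines (-0.47 in shCtrl and -0.44 in shSigma).

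**Figure D4:**
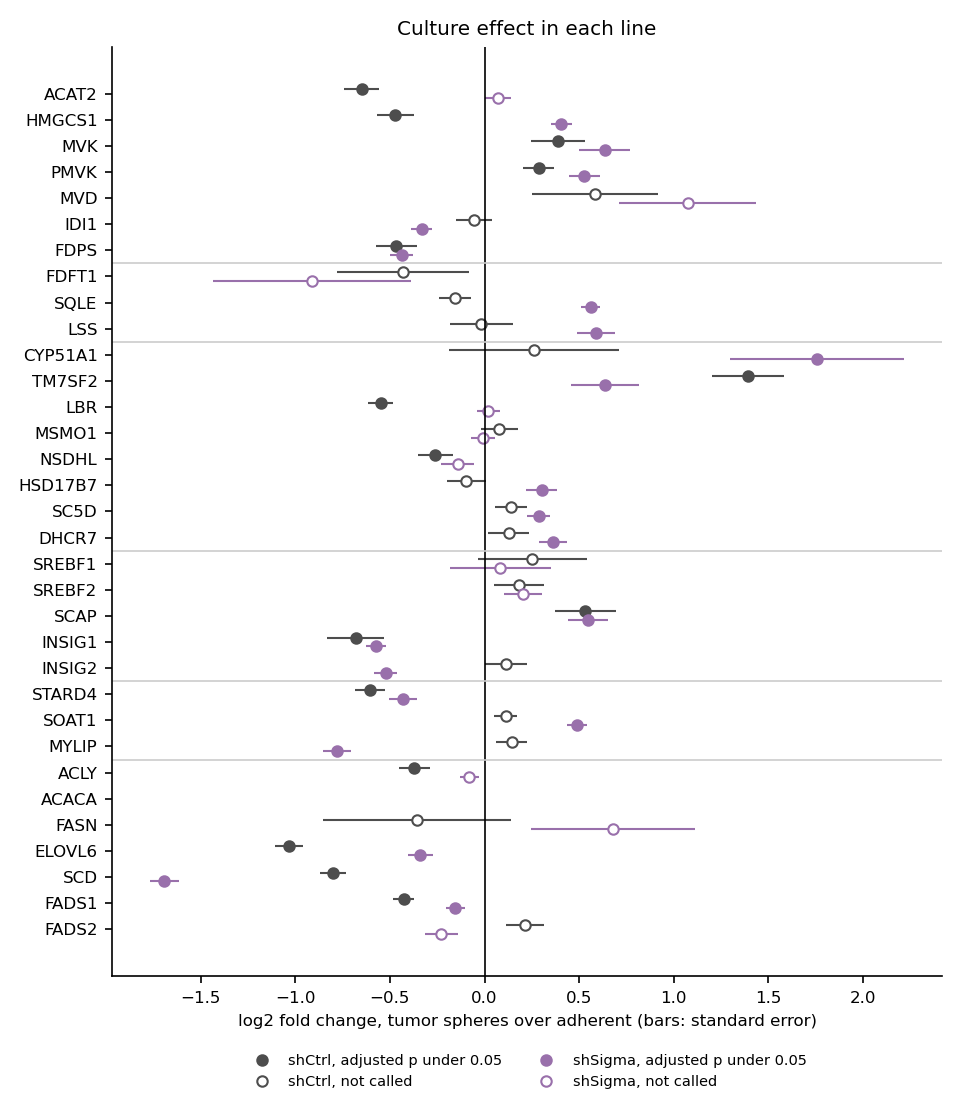
Points are the log2 fold change of tumor spheres over adherent cells (x axis) for each member (y axis, in order of role, grey lines between roles), with bars of 1 standard error, in grey for shCtrl and purple for shSigma. Filled points have an adjusted p under 0.05. SCD, ELOVL6, INSIG1, STARD4, FDPS and FADS1 were lower in spheres of both lines, and HMGCS1 was lower in shCtrl and higher in shSigma.

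Base composition of the transcripts moved with some members. MVD, TM7SF2, SREBF1, SCAP and FASN have at least 60% GC in their longest transcript, and they varied between adherent replicates. FASN had 107, 233 and 448 CPM in adherent shCtrl and 240.0, 307 and 94.5 CPM in adherent shSigma libraries. MVD, the mevalonate diphosphate decarboxylase, had 17.2, 27.3 and 44.9 CPM and 23.3, 29.8 and 11.7 CPM. Over 14060 genes, the trend of a library's log2 deviation from its group mean ran from -0.18 to 0.156 per 10 points of GC in adherent libraries and from -0.068 to 0.045 in sphere libraries. The median deviation of the GC-rich members ran from -0.61 to 0.57 in adherent libraries and followed the order of the trend within each adherent group, whereas that of the other members stayed between -0.064 and 0.10. Trends also separated the groups. The log2 fold change rose by 0.18 per 10 points of GC for the knockdown in adherent cells, 0.077 in spheres, 0.34 for spheres against adherent cells in shCtrl and 0.25 in shSigma. With GC offsets, FASN was at 0.40 (adjusted p = 0.0435) and SREBF1 at 0.21 (adjusted p = 0.0152) for the knockdown in spheres, both still called, and MVD was called at -0.28 (adjusted p = 0.00809). In adherent cells the GC offsets added calls for the knockdown, with FASN at -0.67 (adjusted p = 0.0417), MVD at -0.83 (adjusted p = 0.000981), SCAP at -0.53 (adjusted p = 0.001) and SREBF1 at 0.32 (adjusted p = 0.0129). In shCtrl spheres against adherent cells they gave FASN at -1.09 (adjusted p = 0.00859), and SREBF1 went from 0.25 to -0.40 (adjusted p = 0.00228). Over all 5 comparisons 37 member results were called with GC offsets that were not called without them. How many of all genes gained a call with the offsets is not given here. What set these trends was not tested.

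**Figure D5:**
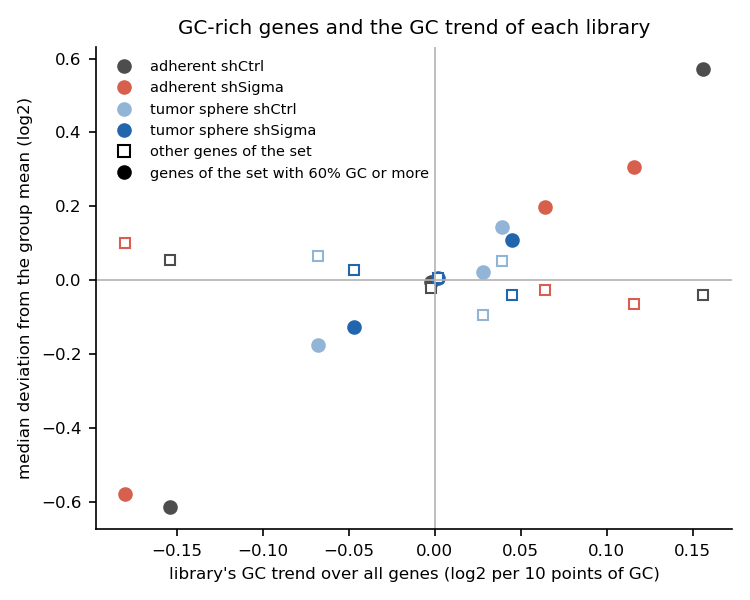
Each library has a filled circle for the 5 members with 60% GC or more and an open square for the other members except FDFT1 and ACACA. The x axis is the library's trend over 14060 genes (log2 per 10 points of GC) and the y axis the median deviation from the group mean (log2). The circles ran from -0.61 to 0.57, in the order of the trend within each adherent group, and the squares stayed between -0.093 and 0.10.

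Of 74 other genes of sterol and fatty acid metabolism, 69 were tested for the knockdown in each culture. In adherent cells 16 were higher and 18 lower, where 22.3% and 27.7% of all genes were. In spheres 23 were higher and 20 lower, where 30.2% and 30.9% of all genes were. These shares were close to those of all genes. For the difference of the effects 18 of 69 were called upward and 12 downward, where 12.7% and 15.6% of all genes were. In spheres against adherent cells, 20 of 67 were higher and 24 lower in shCtrl (27.4% and 26.3% of all genes), and 21 of 69 were higher and 16 lower in shSigma (21.9% and 25.2% of all genes). Of the 9 genes of SREBP processing, which include the proteases that release SREBP and the ligases that degrade INSIG and its partners, 3 were higher and 4 lower after knockdown in adherent cells, and 2 were higher and 1 lower in spheres. Partners of the sterol enzymes gave 1 higher and 3 lower in adherent cells and 3 higher and 4 lower in spheres, of 7 tested. Of 12 genes of the isoprenoid branches tested, 5 were lower in adherent cells and 4 in spheres, and the others were not called. Cholesterol transport and efflux gave 2 higher and 3 lower, then 4 higher and 6 lower, of 13 tested. Wider fatty acid synthesis gave 10 higher and 3 lower in adherent cells and 14 higher and 5 lower in spheres, of 28 tested. The shares of all genes given above, 22.3% higher and 27.7% lower in adherent cells and 30.2% and 30.9% in spheres, are the background of these counts too.

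ACSL5, which activates long-chain fatty acids, had 2 to 4 counts in each adherent shCtrl library and 89 to 117 counts in each adherent shSigma library (adjusted p = 8.07e-06). In spheres it had 2 to 3 counts per shCtrl library and 67 to 85 counts per shSigma library (adjusted p = 5.47e-08), so a fold change is not given. FAXDC2, a hydroxylase family member, rose by 1.80 in adherent cells and by 3.89 in spheres on the log2 scale, a difference of 2.04 (adjusted p = 0.00327), with 4 to 11 counts per shCtrl library. FADS3 (1.29) and ELOVL3 (1.13) were higher and PDSS1, of coenzyme Q synthesis, was lower (-1.01) after knockdown in adherent cells. ELOVL3 counts were low, with 10 to 17 per adherent shCtrl and 19 to 30 per adherent shSigma library. FADS3 varied between adherent replicates, with 26.11, 35.45 and 48.17 CPM in shCtrl and 109.1, 106.7 and 61.36 CPM in shSigma libraries. FADS3 (1.315) and ELOVL3 (0.944) were called higher in spheres too, and PDSS1 was not called there (-0.104). In spheres ABCG1, a cholesterol exporter, was lower (-1.87), as was CYP27A1, a sterol 27-hydroxylase (-1.43), and the elongase ELOVL2 was higher (1.43). ABCG1 (-2.14), NPC2, a lysosomal cholesterol carrier (-1.48), CYP27A1 (-1.42) and NCEH1, a cholesteryl ester hydrolase (1.59), also differed between the cultures. In spheres against adherent cells, shCtrl had called values past 1 for ELOVL2 (-2.68), NPC2 (2.47), CYP27A1 (2.20), NCEH1 (-1.97) and MLXIPL (1.56). In shSigma cells they were FAXDC2 (1.68), ELOVL2 (-1.52), NR1H2 (1.28), AGPAT2 (1.16) and ABCG1 (-1.08). MLXIPL, NR1H2 and AGPAT2 varied between adherent replicates in the order of the libraries' GC trend. NR1H2 had 11.7, 16.9 and 26.9 CPM in adherent shCtrl and 40.3, 49.2 and 19.4 CPM in adherent shSigma libraries. Values with GC offsets are not given for these other genes, and the part of GC content in them was not tested.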

How the data were processed

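RNA of 12 DU145 cultures was made into directional poly(A) libraries from 800 ng of total RNA and read 75 nt from one end, per the labels. The submitters' processing notes name STAR 2.6.1c, DESeq and the genome GRCh38.p12 (hg38). Which annotation was used, whether strand was used in counting and how multi-mapping reads were handled is not given in the sources used here. The authors deposited raw read counts per Ensembl gene, without normalization, as 1 table of 28747 genes, of which 26153 have a symbol in GENCODE. All count columns were used. The members and lists were chosen with earlier results of these data known.

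Fold changes, levels (CPM) and p-values were computed from these counts with edgeR 4.0.16 in R 4.3.3. Libraries were scaled by TMM and low genes removed by filterByExpr at a minimum count of 10. The robust quasi-likelihood test, two-sided, was fitted on the 6 libraries of each comparison over all genes, with Benjamini-Hochberg adjustment and a call at an adjusted p under 0.05. A prior count of 0.125 was used for fold changes. The difference of the knockdown effects was the interaction of hairpin and culture over 12 libraries. Alternatives were DESeq2 1.42.0, its size factors, upper-quartile factors, no filter, a minimum of 10 counts in each library, all 12 libraries fitted together, the replicate block, an adjusted p under 0.01 and each library left out. GC offsets were chosen after seeing the data. They were a lowess trend (span of 0.3) on GC content of each library's log2 deviation from the gene's mean over the libraries fitted. They therefore also take out GC trends between the compared groups. GC content was that of the longest transcript of each gene. Depth was 16472722 to 26957777 counts per library, and counting error alone does not cover the spread between replicates, whose chi-square per gene was 2.73 to 43.9. The procedure was tested on simulated data. Named in full were members called with an absolute log2 fold change over 0.5, at most 10 a comparison, and of the other pathway genes at most 5 a comparison called past 1. Cell type markers and the sphere knockdown values of FADS3, ELOVL3 and PDSS1 were given as well. The level of the gene that the hairpin targets, a marker and the list that holds it are not reported here. The plots used matplotlib 3.10.9 and pandas 2.3.3 under Python 3.11.15.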

Additional observations from a re-analysis of the deposited data

Results flagged for a closer look

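For 13 of 32 members tested the interaction of hairpin and culture was called (edgeR quasi-likelihood test, adjusted p under 0.05). Of the members tested, 9 differed upward (28.1%, against 12.7% of all genes) and 4 downward (12.5%, against 15.6% of all genes). The differences, as spheres minus adherent on the log2 scale, were 0.85 for HMGCS1, 0.69 for ACAT2, 0.69 for SQLE, 0.67 for ELOVL6, 0.58 for LSS, 0.55 for LBR, 0.37 for HSD17B7, 0.35 for SOAT1 and 0.25 for FADS1. They were -0.95 for MYLIP, -0.92 for SCD, -0.66 for INSIG2 and -0.46 for FADS2. The calls of LSS, HSD17B7, FADS1 and FADS2 were each lost in some fit with a library left out, and at an adjusted p under 0.01. Those of LSS, HSD17B7 and FADS1 were also lost with a replicate block.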

How the results depend on the processing

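Each library left out in turn moved the members called as follows. The knockdown in adherent cells gave 4 to 6 higher and 6 to 8 lower, and in tumor spheres 12 to 14 higher and 4 to 6 lower. The difference of the effects gave 6 to 10 upward and 4 to 5 downward. Spheres against adherent cells gave 1 to 7 higher and 10 to 11 lower in shCtrl, and 9 to 14 higher and 8 to 10 lower in shSigma. Of 80 called member results, 62 kept their call without any 1 library, and 0 reversed (edgeR).

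The number of members higher after knockdown in adherent cells was 4, but 7 with upper-quartile factors and 9 with all 12 libraries in 1 fit. That fit lost the sphere knockdown calls of MVK, LBR, SREBF1, SCAP and FASN. With GC offsets the higher members in adherent cells were 9, the lower members there 12, the lower members in spheres 8 and the upward differences 14. Shares of all genes under these settings are not given here. Of called results, the GC offsets reversed PMVK (-0.14) and SCAP (-0.053) in shCtrl spheres against adherent cells. They also reversed TM7SF2 (-0.023) in shSigma spheres, and none of these was then called. Calls were lost for MVK for the knockdown in spheres (0.19) and in shCtrl spheres (0.018), and for SCAP in shSigma spheres (0.058). Some results not called without the offsets changed sign and were then called. In shCtrl spheres against adherent cells these were SREBF1 (-0.40), DHCR7 (-0.23) and FADS2 (-0.17), and in shSigma SREBF1 (-0.48) and MSMO1 (0.12). For the knockdown in spheres it was MVD (-0.28). At an adjusted p under 0.01, 62 of 80 calls held, and the higher members in shCtrl spheres were 1. No filter on low counts lost the calls of LBR and FASN for the knockdown in spheres, of SCAP in shCtrl spheres and of CYP51A1 and TM7SF2 in shSigma spheres. The cause was not tested. Under DESeq2's test 75 of 80 calls held.

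Deviations of same-numbered replicates from their group means had correlations from -0.849 to 0.429. Differently numbered replicates were not compared, so these values do not decide whether the numbers pair the libraries. With a replicate block 72 of 80 calls held, and the higher members in shCtrl spheres were 2. FDFT1 and ACACA could not be judged from their few counts, and whether depth or the authors' counting limits them was not tested.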
